A study of Mus musculus with 12 samples.

Results

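The respiratory chain genes described here are the nuclear genes for subunits of complexes I to IV and of ATP synthase (complex V). They were picked by symbol (Nduf followed by a, b, c, s or v and a number, Sdha to Sdhd, Uqcr, Cox4 to Cox8 and Atp5), leaving out assembly factors and pseudogenes. The rule found 86 of the 17210 genes in the deposited count table, with 39 in complex I, 4 in complex II, 8 in complex III, 18 in complex IV and 17 in complex V. They were measured by mRNA sequencing in 12 libraries of G1E-ER4 cells, 3 in each of 4 groups.

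G1E-ER4 cells are a mouse erythroid line without a working Gata1 gene of its own. GATA1, a transcription factor of the erythroid lineage, is supplied as an estrogen receptor fusion that becomes active when β-estradiol (EST) is added. All 4 groups share this background, are labelled C57BL/6J, and were exposed to retrovirus for 24 h. Vector cells received empty retrovirus, and SREBP2 cells received the active fragment of SREBP2 (amino acids 1 to 468), a transcription factor that switches on cholesterol synthesis genes. The authors report that SREBP2 overexpression without EST also brought the GATA1 fusion into the nucleus and resembled GATA1 activation. Vector+EST and SREBP2+EST cells were in addition treated with EST for 6 h, at 500 nM by the sample protocol and 200 nM by the design text. The cells are 1 line, and the labels do not say whether replicates were separate cultures, so p-values measure only the spread between these samples, which may be technical.

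Complex I takes electrons from NADH, complex II takes them from succinate, complex III passes them to cytochrome c and complex IV passes them to oxygen. Complexes I, III and IV pump protons, and ATP synthase uses the proton gradient to make ATP. Nuclear and mitochondrial genomes both encode subunits of complexes I, III, IV and V. Erythroid precursors need mitochondria for heme synthesis and lose them late in maturation. Subunits encoded in mitochondrial DNA were not analysed here.

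Libraries held 18700959 to 19152281 counts each. Srebf2 stood at 355 to 370.4 CPM (counts scaled to a common library size after TMM normalization) in Vector, 432 to 456 in Vector+EST, 797 to 837 in SREBP2 and 801 to 814 in SREBP2+EST. The labels also call the cells embryonic stem cells, but the summed level of the 4 embryonic stem cell markers present in the table lay between 0.053 and 0.65 CPM, while 11 erythroid markers summed to 10281 to 10746 CPM in Vector and 6340.5 to 7514 in the other groups. That sum is mostly Hba-a1, Hbb-b1 and Gata1, and of the 11 markers 3 rose with EST in Vector cells (Alas2, Tfrc and Klf1) and 7 fell. The 3 Vector libraries stood apart from the other 9 on the first principal component of all genes, which held 65.3% of the variance, so a technical difference of the Vector group cannot be told apart from the group itself. Libraries carry the numbers of the count table's column headers. On that component SREBP2 library 1 (29.6) lay nearest to SREBP2+EST libraries 2 and 5 (31 and 31.2), and SREBP2+EST library 1 (26.1) lay between the 2 sets, away from the other libraries of its group. On the second component, with 16% of the variance, SREBP2 library 1 (9.81) again lay beside SREBP2+EST libraries 2 and 5 (9.04 and 9.41), and SREBP2+EST library 1 (16.1) beside SREBP2 libraries 3 and 5 (17.9 and 17.4). Trace levels of Col1a1 ran with the labels instead, at 0.053 to 0.054 CPM in the 3 SREBP2 libraries and at 6.5, 13.8 and 6.84 CPM in SREBP2+EST libraries 1, 2 and 5. The labels were kept. Counts per comparison, complex and gene list are therefore also given without them, while those for smaller groups of subunits are not. The summed level of 8 fibroblast or stroma markers was 20.6 to 21.4 CPM in Vector, 5.46 to 7.53 in SREBP2, 18.7 to 35.2 in SREBP2+EST, 6.12 to 6.24 in Vector+EST libraries 1 and 3 and 36.5 in Vector+EST library 5. Its members differed, since the Vector sum was almost all Col1a2 (18.9 to 19.9 CPM, Col1a1 at most 0.0513), while SREBP2+EST and Vector+EST library 5 held Col1a1 (6.5 to 13.8), Fn1, Mmp2 and Igfbp7 with Col1a2 at 5.76 to 7.97. That of 6 neuronal markers was 9.98 to 12 CPM in Vector and 2.02 to 4.82 in the other groups. The part of these traces in the results was not tested.

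Together the respiratory chain genes took 1.47% to 1.52% of all counts in Vector, 1.46% to 1.53% in SREBP2, 1.6% to 1.63% in Vector+EST and 1.47% to 1.52% in SREBP2+EST. Vector+EST was thus the one group whose libraries all lay above those of the others. In bulk RNA, fewer cells of a type and less RNA per cell cannot be told apart. The low-count filter passed 80 of the 86 (38, 4, 8, 13 and 17 in complexes I to V), and each of these had at least 43 counts in every library. The other 6 (Ndufb4b, Cox4i2, Cox6a2, Cox7b2, Cox8b and Cox8c) reached at most 0.461 CPM, where 3 counts, the lowest level taken as detected, make 0.16 CPM. The median tested member had a mean of 133 CPM, against 37.9 CPM over all 11177 genes tested, and a transcript of 758 bases, against 2860. Its libraries varied within groups by a coefficient of variation of 3.62%, against 5.34% for all genes.

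**Figure D1:**
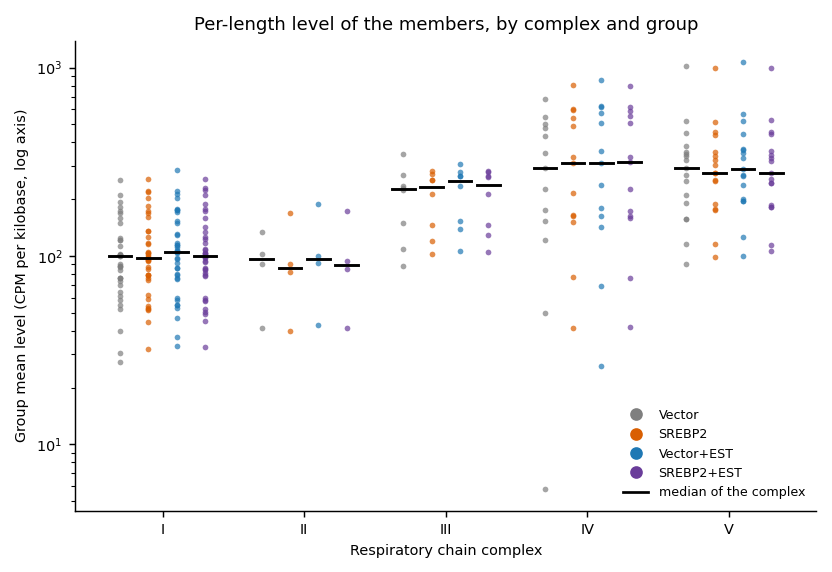
Mean level of 79 tested nuclear subunit genes per kilobase of transcript (CPM per kilobase, log axis), by complex and, in colour, by group of 3 libraries; each point is 1 gene and the bar is the median of the complex. In Vector, medians run from 96.3 (complex II) to 294 (complex IV), and Cox7a1 lies lowest of all at 5.77.

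Ndufb4c had no transcript length and is left out of levels per length. Per kilobase of transcript, the median level in Vector cells was 99.3 CPM in complex I, 96.3 in complex II, 227 in complex III, 294 in complex IV and 292 in complex V. Within complex I the levels per kilobase ran from 27.5 CPM (Ndufc1) to 253 (Ndufb8). Within complex V they ran from 90.6 CPM (Atp5e, the epsilon subunit of the central stalk) to 1023 (Atp5b, the catalytic beta subunit). In complex IV they ran from 5.77 CPM for Cox7a1, the heart and skeletal muscle isoform of subunit 7a, to 681 for Cox8a. Reads were counted over whole transcripts, and how isoforms were resolved limits these levels per length.

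The first comparison asked how GATA1 activation by EST moved the respiratory chain in cells without added SREBP2. Of the 80 genes, 41 rose and 5 fell, against 35.2% and 35.5% of all genes tested. That makes 57.5% of the respiratory chain genes, against 70.6% of all genes. Most rises were small, and 14 genes rose and 1 fell over 1.2-fold, against 27.8% and 28% of all genes (55.7% in either direction). The median log2 fold change was 0.13, against 0.01 over all genes, and 69 of 80 values were positive. The libraries of the 2 groups did not overlap for 49 genes that were higher and 7 that were lower with EST, against 37.8% and 37.9% of all genes (75.7% in either direction). Without the 2 doubtful libraries, which lie outside this contrast but share its estimate of spread and its scaling, 39 rose and 8 fell. Without Vector library 5, 31 rose and 8 fell.

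The median was positive in each complex. Complex IV had 8 of 13 genes higher and none lower (median log2 fold change 0.19), complex I 20 of 38 higher and 3 lower (0.13), complex III 4 of 8 higher and 1 lower (0.11), complex V 7 of 17 higher and none lower (0.11), and complex II 2 of 4 higher and 1 lower (0.09). Within complex I, the 7 core subunits, which carry the flavin, the iron-sulfur clusters and the quinone site, had 3 higher and 1 lower with a median of 0.08. The other 31 genes assigned to complex I by symbol had 17 higher and 2 lower with a median of 0.15. They are mostly accessory subunits. Among them are also Ndufa4, known as a complex IV subunit, its paralog Ndufa4l2, and Ndufb4c, a copy of Ndufb4. In ATP synthase, 1 of 5 genes of the catalytic F1 head rose (Atp5a1, by 0.13 ± 0.03), as did 2 of 3 genes of the proton-conducting c-ring. The differences between complexes were not tested. With the 2 doubtful libraries left out, higher and lower genes numbered 19 and 5 in complex I, 2 and 1 in complex II, 4 and 1 in complex III, 8 and 0 in complex IV and 6 and 1 in complex V.

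**Figure D2:**
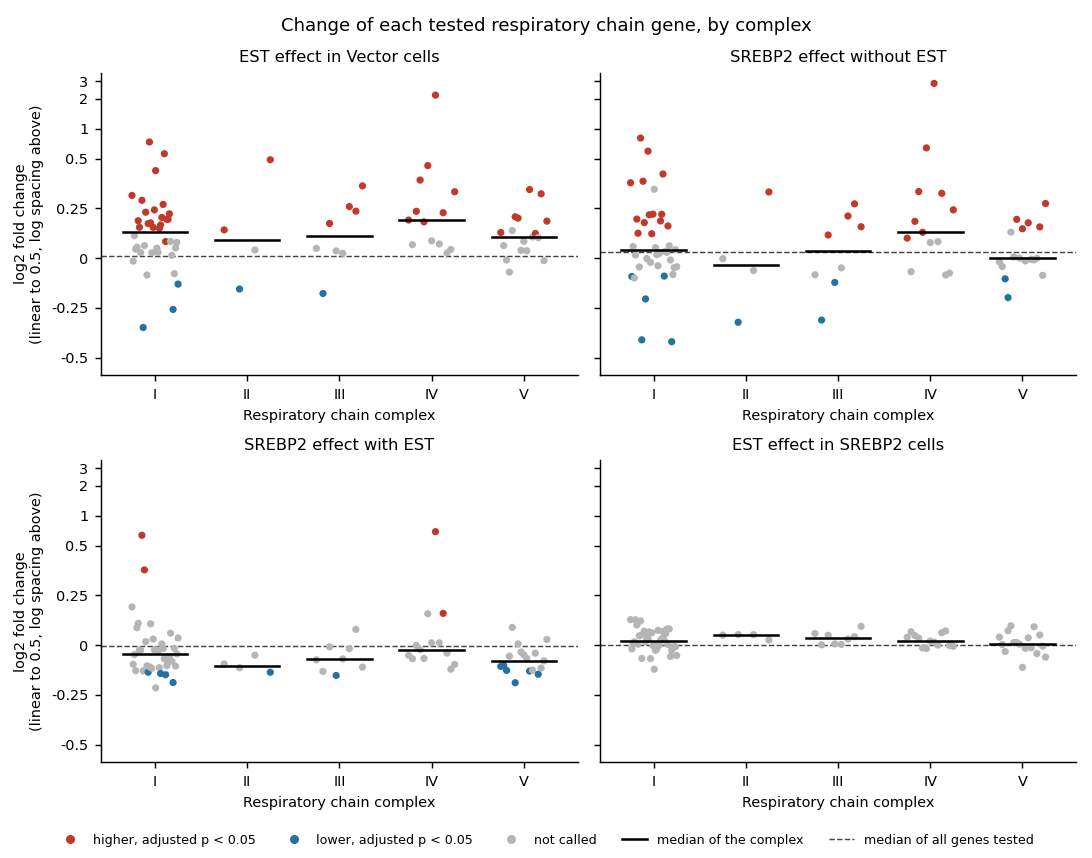
Log2 fold change of each tested nuclear subunit gene by complex in the 4 pairwise comparisons (vertical axis linear near 0 and logarithmic beyond it); red (higher) and blue (lower) points passed an adjusted p of 0.05, grey points did not, bars are medians of the complex and the dashed line is the median of all genes tested. In the EST effect in Vector cells 41 points are red and 5 blue, and in the EST effect in SREBP2 cells all are grey.

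The largest rise was that of Cox7a1 (Entrez 12865, chr7:30184171-30186030, GRCm38.p6). It stood at 2.36, 2.24 and 2.2 CPM in the Vector libraries, at 10.7, 9.62 and 10.4 in Vector+EST, at 17.1, 14.5 and 17.4 in SREBP2, and at 15, 19.4 and 15.1 in SREBP2+EST. Vector was lowest, Vector+EST lay between, and both SREBP2 groups were highest and overlapped each other. The rise with EST was 4.5-fold (log2 fold change 2.17 ± 0.14, SE, edgeR quasi-likelihood adjusted p = 1.26e-09). These levels rest on 43 to 46 counts per Vector library. The isoform is known from heart and skeletal muscle, and the summed level of 5 other muscle markers (Myh6, Myh7, Acta1, Ckm and Actc1) was 0.325 to 0.955 CPM in all 12 libraries.

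Ndufb10, an accessory subunit in the proton-pumping arm of complex I, followed (chr17:24722060-24724423). Its libraries read 85.2, 91.6 and 90.8 CPM in Vector, 141, 146 and 159 in Vector+EST, 133, 131 and 139 in SREBP2, and 137, 136 and 140.4 in SREBP2+EST. All 9 other libraries thus lay above the Vector libraries, and it rose 1.66-fold with EST (0.73 ± 0.05, adjusted p = 1.07e-09). Ndufc2, another accessory subunit of the membrane arm, rose from 70.3, 69.3 and 67.6 CPM to 100.5, 99.9 and 105 CPM (0.56 ± 0.04, adjusted p = 7.22e-09). Sdhd, a membrane anchor of complex II, rose from 163, 166 and 168 CPM to 235, 235 and 229 CPM (0.49 ± 0.04, adjusted p = 8.63e-09). Neither gene's groups overlapped.

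Lower rises were spread over the complexes. In complex IV, Cox6a1 (0.39), Cox8a (0.33) and Cox6b2 (0.46), all small nuclear subunits around the catalytic core, rose. In complex III, Uqcrq, a small subunit beside cytochrome b, rose by 0.36 on the log2 scale, and Uqcrfs1, the Rieske iron-sulfur protein, by 0.26 ± 0.04 (123, 118 and 120 CPM in Vector and 142, 144 and 146 in Vector+EST). In ATP synthase, Atp5j2, a subunit of the membrane part, rose by 0.34. The representative of complex IV, Cox4i1, the largest nuclear subunit of the complex, went from 375, 381 and 369.7 CPM to 430.4, 418 and 436 CPM (0.19 ± 0.03, adjusted p = 0.000133). Atp5b stood at 1939.6, 1969 and 1973 CPM in Vector and 2042, 2045 and 2054 in Vector+EST, a difference of 0.06 ± 0.03 that did not pass the test (adjusted p = 0.071) although the libraries did not overlap.

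The 5 falls were Ndufa5 (-0.35), Ndufs7 (-0.26), Uqcr11 (-0.18), Sdhb (-0.16) and Ndufv3 (-0.13). Ndufs7, a core complex I subunit that holds the last iron-sulfur cluster before quinone (chr10:80249105-80256794), read 143, 139 and 133 CPM in Vector, 113, 116 and 117 in Vector+EST, 98.6, 98.9 and 112 in SREBP2, and 103, 98.8 and 103 in SREBP2+EST. Every Vector library lay above all 9 others. Ndufa5, an accessory subunit of the peripheral arm (chr6:24518662-24527690), read 59.7, 65.5 and 58.2 CPM in Vector and 46, 51 and 47 in Vector+EST, groups that did not overlap. Correcting each library for transcript GC content and length ended the calls of Ndufs7 (-0.02, adjusted p = 0.678), Sdhb (adjusted p = 0.352), Uqcr11 (adjusted p = 0.0842) and Ndufv3 (0.04, adjusted p = 0.347). Ndufa5 still fell (-0.38, adjusted p = 1.39e-05), and Ndufa4 (-0.12) and Atp5md (-0.15), which had not passed before, fell as well. A tRNA gene lies within 74 bases shared with Ndufs7, and counting by strand is not stated.

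**Figure D3:**
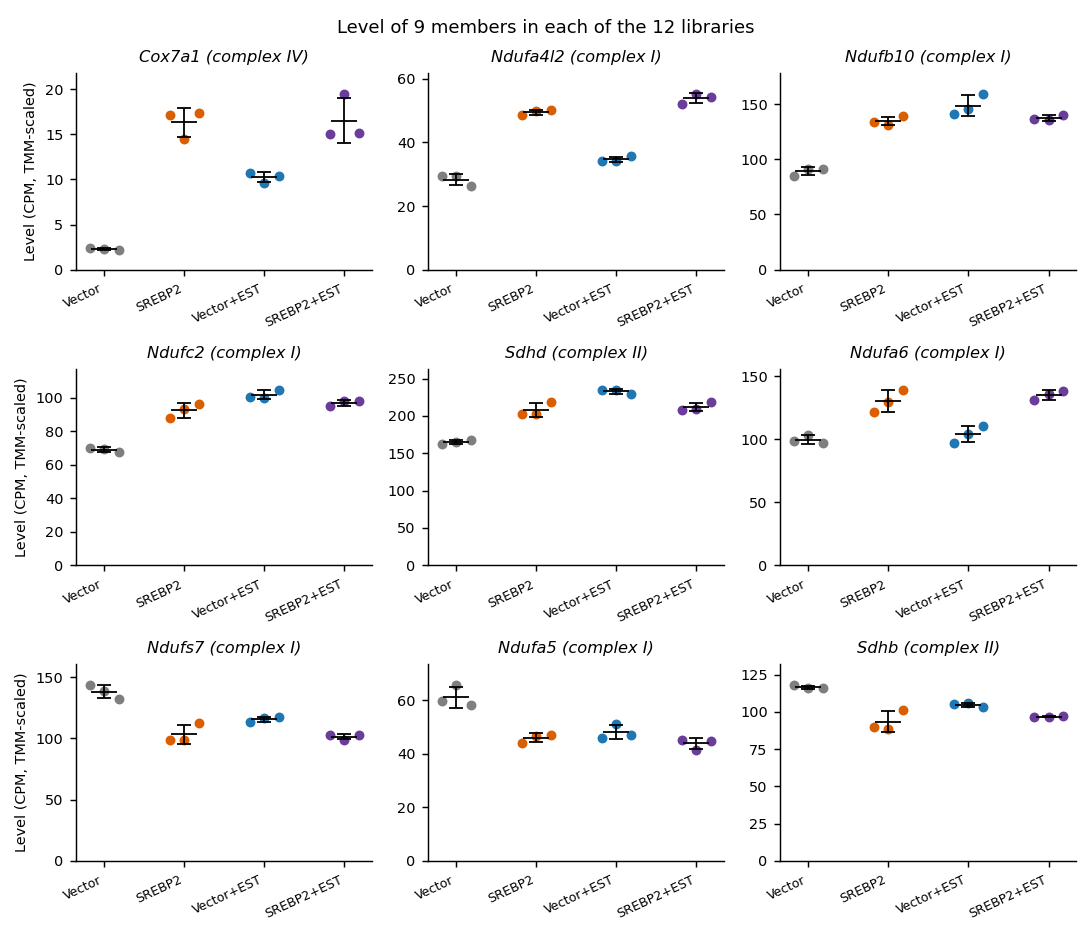
Levels (CPM, linear axes from 0) of selected subunit genes in each library, with 3 libraries per group; points are libraries and bars are group means ± SD. Vector libraries of Cox7a1 and Ndufb10 lie below, and those of Ndufs7 and Ndufa5 above, the libraries of the other 3 groups.

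The bases before the starts of the pair of genes that rose most and of the pair that fell most with EST are printed because their libraries separate Vector from the rest. Each is the 250 bases before a RefSeq transcript start on the gene's own strand (GRCm38.p6), at chr7:30183921-30184170 (+) for Cox7a1, chr17:24724424-24724673 (-) for Ndufb10, chr10:80249199-80249448 (+) for Ndufs7 and chr6:24527691-24527940 (-) for Ndufa5, whose RefSeq start lies 323 bases from the GENCODE start. The start used for Ndufs7 lies 3 bases from the GENCODE start and inside the gene span given above, which begins at an earlier start, so its stretch lies within that span. Capitals mark matches to the GATA letters AGATAA or TGATAA and to the NRF1 motif (TGCGCATGC or its palindromic form, in which the middle base pair may vary), on either strand.
Cox7a1: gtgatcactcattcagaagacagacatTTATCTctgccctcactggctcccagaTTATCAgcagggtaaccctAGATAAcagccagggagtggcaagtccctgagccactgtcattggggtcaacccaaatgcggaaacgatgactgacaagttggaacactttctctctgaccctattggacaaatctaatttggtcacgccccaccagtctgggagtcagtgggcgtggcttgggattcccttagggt
Ndufb10: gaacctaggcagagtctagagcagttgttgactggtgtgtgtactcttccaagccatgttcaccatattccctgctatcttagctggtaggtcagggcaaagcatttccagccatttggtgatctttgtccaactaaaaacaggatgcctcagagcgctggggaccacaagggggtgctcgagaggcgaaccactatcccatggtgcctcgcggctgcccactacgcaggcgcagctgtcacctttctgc
Ndufs7: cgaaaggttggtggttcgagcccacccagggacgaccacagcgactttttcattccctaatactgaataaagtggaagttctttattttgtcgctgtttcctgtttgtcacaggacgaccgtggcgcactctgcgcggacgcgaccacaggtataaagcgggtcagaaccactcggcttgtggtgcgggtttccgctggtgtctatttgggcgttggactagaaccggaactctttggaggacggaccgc
Ndufa5: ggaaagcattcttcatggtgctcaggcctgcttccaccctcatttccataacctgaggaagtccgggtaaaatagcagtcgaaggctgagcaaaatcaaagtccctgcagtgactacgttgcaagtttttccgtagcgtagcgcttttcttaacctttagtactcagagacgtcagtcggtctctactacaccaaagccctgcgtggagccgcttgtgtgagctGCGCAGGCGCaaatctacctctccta

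The Cox7a1 stretch held 3 GATA matches, beginning 223, 196 and 177 bases before the start. Ndufa5 held 1 NRF1 match 26 bases before its start, and the stretches of Ndufb10 and Ndufs7 held neither. Promoters of 300 bases (250 before and 50 after the start) were matched for 66 of the 80 genes and for 9059 of all genes tested. NRF1, known as a regulator of respiratory chain genes, had its letters in 17 of 66 (25.8%) against 12.9% of all. GATA letters were in 13 of 66 (19.7%) against 10.6%. The letters of YY1 (AAGATGGCG) were in 9.09% against 3.59%, and ETS letters (CCGGAAGN or ACTTCCGG) in 24.2% against 20.1%. SREBP letters (TCACNCCAC) were in none of the 66, against 1% of all promoters. The letters of SP factors (GGGCGG) were in 40.9% against 64%, and those of the E-box (CACGTG) in 9.09% against 10.2%. Among the 30 matched genes that rose with EST, 5 (16.7%) held GATA letters. A match or its absence is a description of these letters only.

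The second comparison asked what active SREBP2 did without EST, using the same Vector libraries. Of the 80 genes, 32 rose and 10 fell, against 37.7% and 33.8% of all genes tested (71.5% in either direction). This split depended on the scaling, with 26 rising and 13 falling under relative log expression and 23 and 23 under library totals alone. Over 1.2-fold, 12 rose and 4 fell, against 30.7% and 26.6% of all genes. The median log2 fold change was 0.04, against 0.03 over all genes. Groups did not overlap for 30 higher and 11 lower genes, against 39.3% and 35.5% of all genes (74.8% in either direction). Without the 2 doubtful libraries 28 rose and 14 fell, and without Vector library 5, 21 rose and 15 fell.

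In complex IV, 8 of 13 genes rose and none fell, with a median of 0.13. Complex I had 14 higher and 5 lower of 38 (median 0.04), complex III 4 and 2 of 8 (0.03), and complex V 5 and 2 of 17 (-0.0014). Complex II had 1 higher (Sdhd, 0.33) and 1 lower (Sdhb, -0.32). The counts without the 2 doubtful libraries were 7 higher and 1 lower in complex IV (Cox7b, -0.12, adjusted p = 0.0305), 13 and 7 in complex I, 3 and 2 in complex III, 4 and 3 in complex V and 1 and 1 in complex II. None of the 7 core subunits of complex I rose and 2 fell, Ndufs7 and Ndufs1. Of the other 31 genes assigned to complex I by symbol, Ndufa4l2 included, 14 rose and 3 fell. None of the 5 F1 head genes rose, and 2 fell, Atp5d (-0.20) and Atp5c1 (-0.10), both subunits of the rotating central stalk. The other subunit there, Atp5e, did not pass the test (0.13 ± 0.07, adjusted p = 0.114). Ndufs1, the largest core subunit, read 270.0, 272 and 267 CPM in Vector, 257, 252 and 251 in SREBP2, 289, 288 and 280.2 in Vector+EST, and 261, 256 and 257 in SREBP2+EST. It lay highest with EST alone, and fell with SREBP2 by 0.09 (SE 0.03, adjusted p = 0.0175) without EST.

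Cox7a1 had the largest rise in this comparison too, 7.19-fold (2.85 ± 0.14, adjusted p = 1.8e-11). Ndufa4l2, a paralog of Ndufa4 known as a hypoxia-responsive gene (chr10:127509274-127517154), was next. It read 29.4, 29.4 and 26.2 CPM in Vector, 48.7, 49.8 and 50.1 in SREBP2, 34.1, 34.3 and 35.6 in Vector+EST, and 52.1, 55.2 and 54.3 in SREBP2+EST. Both groups with SREBP2 lay above both groups without it, at 0.80 ± 0.05 without EST (adjusted p = 1.05e-09) and 0.64 ± 0.05 with it (adjusted p = 1.04e-07). It shares 32 bases with Shmt2, which reached 594 CPM.

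Ndufa6, an accessory subunit at the arm of complex I that faces the matrix, also rose with SREBP2 in both settings. Its libraries read 98.5, 103 and 96.8 CPM in Vector, 122, 129 and 139 in SREBP2, 97.2, 105 and 110.3 in Vector+EST, and 131, 136 and 139 in SREBP2+EST. The rise was 0.39 ± 0.05 without EST and 0.38 ± 0.05 with EST, and Vector and Vector+EST overlapped (0.06 ± 0.05, adjusted p = 0.323). Ndufa1, Ndufb10, Ndufc2 and Cox6b2 rose by 0.38, 0.59, 0.42 and 0.64 without EST.

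The largest falls were Ndufs7 (-0.42 ± 0.05, adjusted p = 1.23e-06), Ndufa5 (-0.41 ± 0.06, adjusted p = 9.47e-06), Sdhb and Uqcr11 (-0.31). Sdhb, the iron-sulfur subunit of succinate dehydrogenase (chr4:140961271-140979198), read 118, 116 and 116 CPM in Vector, 89.6, 88.7 and 101 in SREBP2, 105, 106 and 103 in Vector+EST, and 96.3, 96.7 and 97.2 in SREBP2+EST. Vector was highest and Vector+EST next, and SREBP2 and SREBP2+EST overlapped. Thus within complex II, the iron-sulfur subunit fell while the membrane anchor Sdhd rose to 203, 203 and 219 CPM, and Sdha and Sdhc did not pass the test (-0.0032 ± 0.035 and -0.06 ± 0.05).

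The third comparison asked what SREBP2 did in the presence of EST, between 2 groups that do not include Vector. Here 4 genes rose and 12 fell, against 14% and 7.94% of all genes tested (21.9% in either direction). The median log2 fold change was -0.06, against -0.0048 over all genes, and 60 of 80 values were negative. Libraries did not overlap for 9 higher and 33 lower genes, against 20.5% and 17.5% of all genes (38.1% in either direction). The number of falls depended on the processing, with 18 under relative log expression, 20 by DESeq2, 29 under library totals alone and 27 after the GC content and length correction, each beside 4 or 5 rises. It was 18 without the 2 doubtful libraries, 6 without Vector+EST library 3 and 7 without Vector+EST library 5.

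The 4 rises were Cox7a1 (0.69 ± 0.11, adjusted p = 0.000146), Ndufa4l2, Ndufa6 and Cox7a2l (0.16 ± 0.04, adjusted p = 0.00601), a paralog of Cox7a1 and Cox7a2. The first 3 rose over 1.2-fold, as did 9.68% of all genes, and the 12 falls were all under 1.2-fold, a size that 1.53% of all genes passed in that direction. ATP synthase held 6 of them, the c-ring gene Atp5g1 (-0.19), the F1 subunits Atp5a1 (-0.11), Atp5b (-0.10) and Atp5c1 (-0.13), and the membrane subunits Atp5md (-0.15) and Atp5j2 (-0.13). Complex I held 4 falls, the core subunits Ndufs7 (-0.19) and Ndufs1 (-0.15) and the accessory subunits Ndufb8 and Ndufa9. Complex III held 1, Uqcrc1 (-0.15), and complex II 1, Sdhd (-0.14). Complex IV held none. Leaving out the 2 doubtful libraries, rises and falls numbered 3 and 8 in complex I, 0 and 2 in complex II, 0 and 2 in complex III, 2 and 1 in complex IV (Cox7c, -0.13, adjusted p = 0.0375) and 0 and 5 in complex V. Atp5g1 read 314, 306 and 309 CPM in Vector+EST and 254, 281 and 280 CPM in SREBP2+EST, so the groups did not overlap and the lowest value was that of the doubtful library 1.

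In the cells that carried SREBP2, EST moved no respiratory chain gene past the threshold by edgeR, and none of the 11177 genes tested either (0.0%). The median log2 fold change was 0.022, against 0.0004 over all genes. Positive values were found for 56 of 80 genes (70.0%), against 50.2% of all genes. At an unadjusted p under 0.05 there were 3 of the 80 genes and 506 of all genes, and DESeq2 called 0 and 12. Libraries did not overlap for 4 higher and 1 lower gene, against 4.15% and 3.27% of all genes (7.43% in either direction). Without the 2 doubtful libraries, 1 respiratory chain gene rose (Ndufa7, an accessory complex I subunit, 0.16 ± 0.05, adjusted p = 0.0386), among 1567 genes called. For the respiratory chain genes, the absence of calls therefore holds for the groups as labelled. Over all genes as labelled, edgeR called 8 with only the libraries of the groups compared. It called 22 without the low-count filter and 18 without Vector+EST library 5.

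The EST effect was then compared between cells with and without SREBP2 by an interaction test. It passed for 32 genes, 5 of them higher and 27 lower in their response to EST when SREBP2 was present, against 29.8% and 29.2% of all genes (59.0% in either direction). All 4 groups enter this difference, so it is not independent of the comparisons above. Lower responses were found for 8 of 13 genes in complex IV, 9 of 38 in complex I, 6 of 17 in complex V, 3 of 8 in complex III and 1 of 4 in complex II. The largest were those of Cox7a1 (-2.15 ± 0.18, adjusted p = 3.98e-08), Ndufb10 (-0.70 ± 0.07) and Ndufb4c (-0.56 ± 0.23, adjusted p = 0.0451). Ndufb4c is a copy of Ndufb4 and may share its reads, so its 9.01 to 18.6 CPM are uncertain. The 5 higher responses were those of Ndufa5 (0.28), Ndufs7 (0.23), Sdhb (0.21), Uqcr11 (0.18) and Atp5d (0.14). Without Vector library 5, there were 13 lower responses, and without the 2 doubtful libraries 21 (6 in complex I, 1 in II, 2 in III, 7 in IV and 5 in V). The GC content and length correction gave 2 higher and 39 lower responses. Of the 5 higher ones it kept Ndufa5 (0.30) and ended the calls of Ndufs7 (-0.0073), Sdhb (adjusted p = 0.198) and Uqcr11 (adjusted p = 0.286), while Atp5d turned to a lower response that passed (-0.14, adjusted p = 0.00526) and Ndufa4 to a higher one (0.16, adjusted p = 0.0361).

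**Figure D4:**
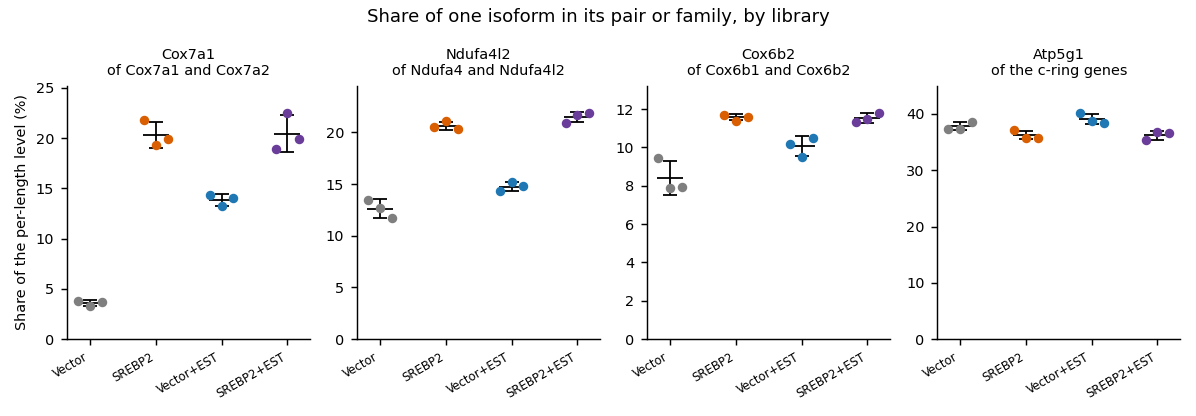
Share of each isoform gene among its paralogs after division by transcript length (percent, linear axes from 0), with 3 libraries per group; points are libraries and bars are group means ± SD. The Cox7a1 share is 3.62% in Vector and 20.3% in SREBP2, while Atp5g1 stays between 35.3% and 40.2% of the c-ring genes.

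Shares among paralogous subunits are a description with no test of their own. By CPM per length, Cox7a1 made up 3.62% ± 0.292 (SD, n = 3) of Cox7a1 and Cox7a2 in Vector, 13.9% ± 0.549 in Vector+EST, 20.3% ± 1.34 in SREBP2 and 20.4% ± 1.88 in SREBP2+EST. Its broadly expressed partner Cox7a2 did not pass the test in any comparison, and its group means were 102 to 108 CPM. Cox7a2 shares 2482 bases with Tmem30a, which reached 93.8 CPM, and 2858 with a pseudogene, so its level and the Cox7a1 share are uncertain to that extent. Ndufa4l2 made up 12.6% ± 0.902 of Ndufa4 and Ndufa4l2 in Vector, 14.8% ± 0.452 in Vector+EST, 20.6% ± 0.399 in SREBP2 and 21.5% ± 0.498 in SREBP2+EST. Ndufa4, counted in complex I by its symbol but known as a subunit of complex IV, had group means of 124 to 131 CPM and passed in none. Cox6b2, known from testis, took 8.42% ± 0.89 of the subunit 6b transcripts in Vector, 10% ± 0.511 in Vector+EST, 11.6% ± 0.159 in SREBP2 and 11.5% ± 0.227 in SREBP2+EST.

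The 3 c-ring genes encode the same mature protein with different import sequences. Atp5g1 took 37.8% ± 0.69 of their transcripts in Vector, 39.1% ± 0.959 in Vector+EST, 36.2% ± 0.754 in SREBP2 and 36.2% ± 0.84 in SREBP2+EST. Atp5g2 took 32.2% ± 0.453, 33.2% ± 0.242, 35.2% ± 0.661 and 35.3% ± 0.581 in the same order. Atp5g1 rose with EST (0.21 ± 0.04) and did not pass the test with SREBP2 (0.01 ± 0.04, adjusted p = 0.907), Atp5g2 rose with both (0.20 ± 0.04 and 0.19 ± 0.04), and Atp5g3 passed in none. Cox4i2, Cox6a2, Cox8b and Cox8c, the tissue-restricted partners of Cox4i1, Cox6a1 and Cox8a, stayed under the low-count filter.

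The genes that build and regulate the chain were set beside its subunits. In the EST effect in Vector cells, 8 of 57 assembly factors tested rose and 30 fell (median log2 fold change -0.18), and with SREBP2 without EST 6 rose and 33 fell (-0.24), against the shares of all genes given above. Without the 2 doubtful libraries 7 rose and 37 fell, and 5 rose and 34 fell. In the first of these comparisons the median of the subunits was 0.13. Of 18 regulators of mitochondrial biogenesis, 2 rose and 12 fell with EST, and 1 rose and 13 fell with SREBP2, the same counts as without the 2 doubtful libraries. Of 16 citric acid cycle enzymes, 6 rose and 6 fell with EST, and 5 rose and 8 fell with SREBP2, where 5 and 7, and 5 and 9, did without the 2 doubtful libraries. In the difference between the EST effects, 23 of 57 assembly factors were higher and 5 lower (25 and 5 without the 2 doubtful libraries), against 29.8% and 29.2% of all genes.

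**Figure D5:**
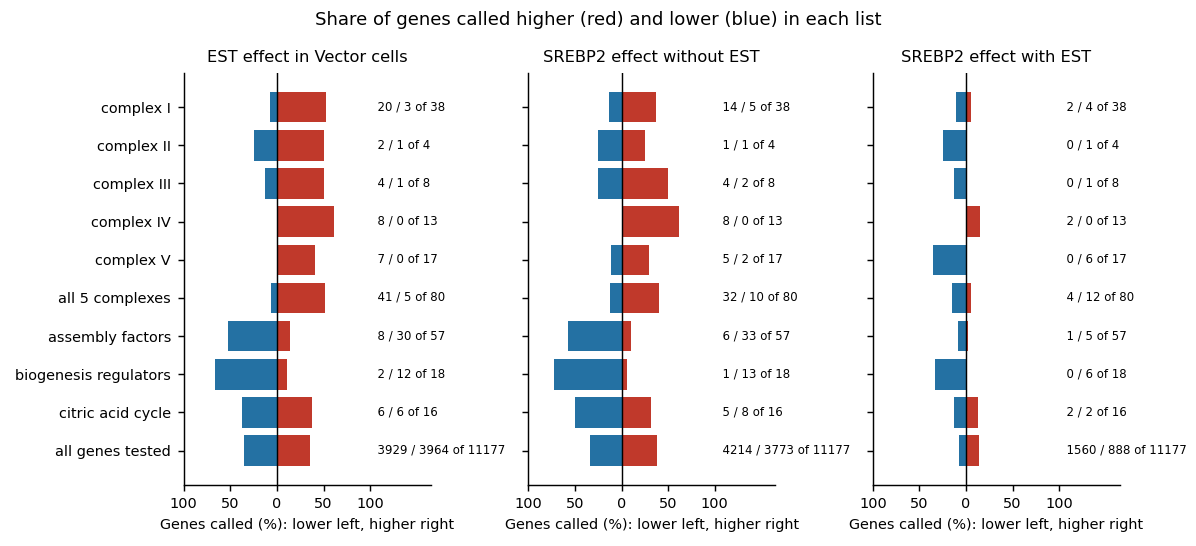
Percentage of genes that passed an adjusted p of 0.05 in each direction, in 3 comparisons, for the subunits of each complex, all 5 complexes, assembly factors, regulators of mitochondrial biogenesis, citric acid cycle enzymes and all genes tested (blue to the left, lower; red to the right, higher; counts at the right as higher / lower of the number tested). For the EST effect in Vector cells 41 of 80 subunit genes are higher and 5 lower, while 8 of 57 assembly factors are higher and 30 lower.

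Among the regulators, Pprc1, a coactivator that raises respiratory chain transcription, read 219.8, 219 and 219 CPM in Vector and 83.6, 78.6 and 84.6 in Vector+EST, a fall of 1.42 on the log2 scale (SE 0.09, adjusted p = 8.31e-10). In SREBP2 it read 69.6, 91.9 and 86.3 CPM and in SREBP2+EST 90.3, 69.6 and 71.4 CPM, so the Vector libraries stood alone. Twnk, the mitochondrial DNA helicase, fell by 1.11 with EST, and Tfam, which packages and transcribes mitochondrial DNA, by 0.45 (adjusted p = 2.24e-05). The 2 regulators that rose with EST were Yy1 and Nrf1. Their means were 199.9 and 67.3 CPM in Vector and 244.8 and 74.4 CPM in Vector+EST.

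Among assembly factors, Ndufaf4 (complex I) read 61.2, 63.6 and 63.1 CPM in Vector and 30.8, 31.9 and 27.5 in Vector+EST, a fall of 1.06 on the log2 scale (adjusted p = 1.39e-07). Sco2, which delivers copper to complex IV, fell by 1.25 (adjusted p = 4.33e-07). Sdhaf2, which helps attach the flavin of complex II, went the other way, from 55.6, 58.5 and 54.1 CPM to 115, 112 and 111 CPM (1.01 ± 0.04, adjusted p = 6.58e-12). In the same complex Sdhb fell and Sdhd rose. Outside the symbol rule, Atpif1, the inhibitor of ATP synthase, rose from 424, 421 and 418 CPM to 534, 549 and 573 CPM with EST (0.39 ± 0.04, adjusted p = 5.22e-07) and to 586, 537 and 607 CPM with SREBP2 (0.45 ± 0.04). Cyc1, the cytochrome c1 of complex III, fell in both comparisons, by 0.28 and 0.41 on the log2 scale.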

How the data were processed

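The authors deposited estimated counts per gene, not normalized, for 12 libraries. Submitters' processing notes name HISAT2 2.0.4, Bowtie2 2.2.5, RSEM 1.2.12, DESeq2 1.4.5 and GRCm38.p6. A table of log2 fold changes and p-values per transcript was not used.

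Counts were rounded. Of 17210 genes, 11177 passed edgeR's filterByExpr. TMM scaling (trimmed mean of M values) was applied and groups were tested with edgeR 4.0.16 (R 4.3.3, quasi-likelihood F-test, 12 libraries in 1 fit). P-values were adjusted by Benjamini-Hochberg over all genes tested, with a threshold of 0.05. Errors of log2 fold changes are standard errors. Groups came from sample titles. Header numbers 1 and 5 recur in every group, but libraries sharing them showed no pairing (correlations of deviations -0.174 to 0.0674). This cannot exclude a shared culture or batch. The members and lists were chosen with earlier results of these data known. The genes chosen for values by library were a representative per complex, isoform genes and the ATPase inhibitor. The 3 largest rises and falls per comparison among genes past the threshold were added. Not all of these are printed for every library, and some genes outside this choice, such as Pprc1, are. Others were named after their values were seen. On simulated counts, 48% of 1.2-fold and 72% of 1.5-fold changes were recovered for the EST effect in Vector cells, with 11 false of 163 calls. The simulation changed 50 genes per fold size, drawn from all genes, whereas 7893 genes were called in the data. The members also had higher levels and less spread than all genes, so these shares do not measure calls missed among them. Transcript lengths come from GENCODE M21 and promoters from RefSeq GRCm38.p6. Alternatives covered scaling, filters, DESeq2 1.42.0, libraries left out, a header-number block, and GC content and length.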

Additional observations from a re-analysis of the deposited data

Results flagged for a closer look

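The EST effect differed between SREBP2 and Vector cells by the interaction test of edgeR (adjusted p under 0.05) for 32 respiratory chain genes, 5 higher and 27 lower in their response when SREBP2 was present, against 29.8% and 29.2% of all genes (59.0% in either direction). As log2 differences of the 2 EST effects, those in complex IV included Cox7a1 (-2.15), Cox6b2 (-0.48), Cox6a1 (-0.36), Cox8a (-0.34), Cox6b1 (-0.20), Cox7a2l (-0.17) and Cox4i1 (-0.15). Those of complex I included Ndufb10 (-0.70), Ndufb4c (-0.56), Ndufc2 (-0.49), Ndufs7 (0.23) and Ndufa5 (0.28). In complex II they were Sdhb (0.21) and Sdhd (-0.47). In complexes III and V they included Uqcrfs1 (-0.23), Uqcr11 (0.18), Atp5g1 (-0.19), Atp5g2 (-0.19) and Atp5d (0.14).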

How the results depend on the processing

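Of 1401 values recomputed for the named genes, 1290 kept their direction and side of the threshold, 51 lost and 20 gained the call, and 40 changed sign. Falls with EST in Vector cells (5) numbered 8 with at least 10 counts in every library and 8 without SREBP2 library 1 and SREBP2+EST library 1, and 3 after correction for GC content and length. Falls with SREBP2 without EST (10) numbered 23 under library totals. Falls with SREBP2 under EST (12) numbered 29 under library totals, 27 after the GC and length correction and 20 by DESeq2. Without the 2 doubtful libraries 1 gene rose with EST in SREBP2 cells, and the GC and length correction gave 2 higher responses in the interaction. Leaving out 1 library gave 31 to 44 rises and 4 to 8 falls with EST in Vector cells, 21 to 33 and 8 to 15 with SREBP2, 4 to 5 and 6 to 18 with SREBP2 under EST, 0 and 0 with EST in SREBP2 cells, and 3 to 6 and 13 to 30 in the interaction. The lows of 31, 21 and 13 came without Vector library 5, that of 6 without Vector+EST library 3 and that of 3 without Vector+EST library 1. The low of 4 falls with EST came without Vector library 1 or Vector+EST library 3. The low of 8 falls with SREBP2 came without Vector library 1 or SREBP2 library 1.

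The header numbers showed no pairing of the libraries. With them as a block, 42 rose and 5 fell with EST in Vector cells, 31 and 10 with SREBP2, 4 and 10 with SREBP2 under EST, none with EST in SREBP2 cells, and 5 and 26 were found in the interaction, so no count moved by over 1.5 times.

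Among all members past the threshold, the GC and length correction alone changed a sign: Ndufs7 (-0.0073) and Atp5d (-0.14) in the interaction, Ndufv3 (0.04), Atp5l (-0.02) and Uqcrb (-0.01) with EST in Vector cells, and Uqcrb (-0.04), Atp5mpl (-0.09) and Uqcrc1 (0.05) with SREBP2 without EST. Under relative log expression, library totals and DESeq2, the log2 fold change of Cox7a2 with SREBP2 under EST became -0.0055, -0.033 and -0.0055, that of Atp5g2 became -0.010, -0.038 and -0.010, and that of Atp5g1 with SREBP2 without EST became -0.021, -0.052 and -0.021. Atp5g1 also became -0.024 with at least 10 counts, -0.0076 with the 2 groups alone and -0.035 without the 2 doubtful libraries. The GC and length correction gave 0.012 for Atp5b with SREBP2 without EST, -0.0030 for Cox7a2 and -0.035 for Atp5g2 with SREBP2 under EST, and -0.020 for Atp5g3 and -0.12 for Ndufa4 with EST in Vector cells, which then passed the test (adjusted p = 0.0199). Ndufa4 there became -0.0074 with at least 10 counts and -0.0097 without the 2 doubtful libraries. Leaving out 1 library gave, with EST in Vector cells, -0.014 to 0.096 for Cox7a2, -0.0062 to 0.059 for Ndufa4 and -0.034 to 0.074 for Atp5g3. With SREBP2 without EST it gave -0.0022 to 0.12 for Cox7a2, -0.043 to 0.024 for Atp5g1 and -0.073 to 0.022 for Atp5g3. With SREBP2 under EST it gave -0.051 to 0.012 for Cox6a1, -0.021 to 0.046 for Cox7a2, -0.018 to 0.032 for Atp5g2 and -0.070 to 0.0044 for Atp5g3. The cause was not tested.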
